A study of Mus musculus with 4 samples.

Results

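Chromatin immunoprecipitation followed by sequencing (ChIP-seq) mapped the transcription factor TFE3 in mouse embryonic fibroblasts (MEF, labelled strain CRL-2977), and the TFE3 peak list of tunicamycin-treated cells was set against that of untreated cells. The treated cells had received tunicamycin at 0.1 µg/ml for 16 hours. The control cells were kept in full medium, and the labels give 10% fetal bovine serum for both the control and the tunicamycin cells. Both were fixed in 1% formaldehyde and precipitated with the same TFE3 antibody, and a separate library, made with rabbit IgG, served as the background of each list. These are 2 of the 4 samples of the series. Each condition had 1 library and no replicate, so every difference below compares 2 libraries and none was tested. The labels describe 1 line of fibroblasts, and a peak list measures no RNA, so fibroblast markers could not be checked.

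The members are all peaks of both lists, 422 in control and 2776 in tunicamycin, 3198 in all. They were compared by chromosome, start and end in mm9. A peak was shared if it overlapped a peak of the other list by at least 1 bp. A tunicamycin peak without a control peak is called gained and a control peak without a tunicamycin peak is called lost. Both words describe presence in a list and not a measured change in binding.

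TFE3 belongs to the MITF/TFE family of basic helix-loop-helix leucine zipper factors, which bind the E-box CACGTG and switch on genes of lysosomes and autophagy. In well-fed cells the kinase mTORC1 keeps much of the protein in the cytosol, and stress lets it enter the nucleus. Tunicamycin blocks N-linked glycosylation, so that misfolded proteins gather in the endoplasmic reticulum and the unfolded protein response and the integrated stress response begin. ATF4 is the main transcription factor of the integrated stress response.

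Promoter sequences of genes at TFE3 sites are shown first, because the E-box is the sequence that TFE3 is known to bind. They are windows of 300 bases, from 250 bases before to 50 after the gene's start, taken by symbol from RefSeq on build GRCm38.p6. That build is not the build of the peaks, so no peak was placed within a window. Capitals mark each CACGTG, which reads the same on both strands. The first group belongs to genes with a strong site in both lists: Bax at chr7:45466849-45467148 on the minus strand, Ube2b at chr11:52000737-52001036 (minus), Sumf1 at chr6:108185534-108185833 (minus), Ctsa at chr2:164833523-164833822 (plus) and Atf4 at chr15:80254934-80255233 (plus).
Bax: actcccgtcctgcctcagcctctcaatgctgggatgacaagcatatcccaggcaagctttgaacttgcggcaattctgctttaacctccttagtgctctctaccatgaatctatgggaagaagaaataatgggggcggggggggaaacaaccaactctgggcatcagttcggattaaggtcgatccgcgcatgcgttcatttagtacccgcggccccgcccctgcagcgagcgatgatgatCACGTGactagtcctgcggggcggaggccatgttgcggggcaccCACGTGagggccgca
Ube2b: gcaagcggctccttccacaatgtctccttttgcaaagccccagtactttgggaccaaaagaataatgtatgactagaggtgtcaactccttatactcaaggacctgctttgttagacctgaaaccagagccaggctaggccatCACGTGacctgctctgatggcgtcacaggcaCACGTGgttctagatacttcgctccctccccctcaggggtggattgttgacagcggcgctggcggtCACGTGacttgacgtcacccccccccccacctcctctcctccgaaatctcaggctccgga
Sumf1: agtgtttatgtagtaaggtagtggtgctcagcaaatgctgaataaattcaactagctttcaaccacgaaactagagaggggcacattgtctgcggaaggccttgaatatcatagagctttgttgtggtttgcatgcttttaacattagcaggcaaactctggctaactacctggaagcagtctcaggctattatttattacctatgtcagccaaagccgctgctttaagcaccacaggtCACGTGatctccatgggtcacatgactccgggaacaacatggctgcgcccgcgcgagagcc
Ctsa: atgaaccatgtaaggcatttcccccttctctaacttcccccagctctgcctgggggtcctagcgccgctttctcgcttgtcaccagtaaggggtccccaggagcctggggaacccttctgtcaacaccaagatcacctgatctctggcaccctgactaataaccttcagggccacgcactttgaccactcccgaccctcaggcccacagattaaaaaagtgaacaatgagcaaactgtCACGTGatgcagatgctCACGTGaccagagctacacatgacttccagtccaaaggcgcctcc
Atf4: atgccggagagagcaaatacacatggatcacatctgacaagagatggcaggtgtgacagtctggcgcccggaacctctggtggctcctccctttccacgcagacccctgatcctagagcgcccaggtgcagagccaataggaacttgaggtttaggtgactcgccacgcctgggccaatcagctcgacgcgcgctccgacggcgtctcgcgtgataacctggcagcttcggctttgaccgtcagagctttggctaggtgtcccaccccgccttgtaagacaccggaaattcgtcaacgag

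The second group belongs to genes whose site was found in the tunicamycin list and not in the control list, Mcoln1 at chr8:3500269-3500568 (plus) and Flcn at chr11:59809990-59810289 (minus), in GRCm38.p6 as above.
Mcoln1: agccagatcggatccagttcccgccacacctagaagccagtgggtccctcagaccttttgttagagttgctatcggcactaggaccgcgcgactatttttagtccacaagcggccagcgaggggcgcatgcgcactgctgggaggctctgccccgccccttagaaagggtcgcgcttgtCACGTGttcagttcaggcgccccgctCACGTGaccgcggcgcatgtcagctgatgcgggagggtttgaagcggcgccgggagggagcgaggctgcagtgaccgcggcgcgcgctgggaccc
Flcn: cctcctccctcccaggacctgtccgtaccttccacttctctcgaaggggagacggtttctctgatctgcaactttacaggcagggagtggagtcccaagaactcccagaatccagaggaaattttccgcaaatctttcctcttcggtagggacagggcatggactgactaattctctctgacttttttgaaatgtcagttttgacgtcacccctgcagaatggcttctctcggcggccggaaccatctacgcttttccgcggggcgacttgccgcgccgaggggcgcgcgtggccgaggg

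The Ube2b window held 3 copies of CACGTG, and the Bax, Ctsa and Mcoln1 windows held 2 each. Sumf1 had 1 copy. The windows of Atf4 and Flcn held no copy, nor did that of Hexa, a further gene of the tunicamycin list. In the Bax window the copies began at bases 242 and 286, counted from the first base of the window. In Mcoln1 they began at bases 180 and 206. The CLEAR element, a palindrome of 10 bases with CACGTG at its centre, was also searched on both strands. This exact sequence was found in the Ube2b window and in none of the others printed. Its inner 8 bases, TCACGTGA, also stood in the Bax, Sumf1, Ctsa and Mcoln1 windows, and in 0.974% of all windows. Inexact matches to the 10 bases were not counted, so these windows are not shown to lack a CLEAR element. Neurl2 lies head to head with Ctsa, and its window holds the same 2 copies on the other strand. Symbols were matched for 9 of the 11 genes looked for, and 6 of the 9 had CACGTG in at least 1 window. Counted by window, as in the share over all windows below, it was 6 of 11. Both counts take Ctsa and Neurl2 separately. Ube2b and Ctsa each have a further window, without a copy. Over all 32851 windows of the table, CACGTG was present in 7.15% and the exact 10 bases of the CLEAR element in 0.326%. The genes were picked for a TFE3 peak at a known mm9 position, and a match describes the letters only.

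The tunicamycin list was 6.58 times as long as the control list, and its library was the deeper of the pair. Depth was recovered from each peak's fold enrichment and p-value, as described with the processing. The control library was 1.54 times and the tunicamycin library 2.14 times as deep as the IgG library, so tunicamycin had 1.39 times the depth of control. The fragment length, taken as the width of the shortest peak, was 149 bp in control and 212 bp in tunicamycin. Both the depth and the fragment length move with the treatment, and their part in the length of the lists was not tested.

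Of the 2776 tunicamycin peaks, 2607 were gained, which is 93.9% of the list (95% exact Clopper-Pearson interval 93.0 to 94.8). Of the 422 control peaks, 252 were lost, or 59.7% (54.9 to 64.4). These intervals, like those of tag numbers below, cover counting error only. The remaining 170 control peaks met 169 tunicamycin peaks, because 1 tunicamycin peak covered 2 control peaks. Merged, the lists gave 3028 regions, of which 169 were in both.

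Membership was clear-cut in position. No lost peak lay within 500 bp of a tunicamycin peak, and 2 lay within 1000 bp. The nearer of these was on chromosome 5, where the lost peak at 65269347 to 65269667 lay 667 bp from a tunicamycin peak. The median lost peak was 421 kb from the nearest tunicamycin peak. The median gained peak was 2214 kb from the nearest control peak, of which there were fewer.

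The strongest tunicamycin sites were those already present in control cells. The 69 tunicamycin peaks of highest rank were all shared, and the strongest gained peak ranked 70. Among the top 100 tunicamycin peaks 91 were shared, among the top 200 it was 134, and among the top 1000 it was 162. The highest decile of the list thus held 144 of the 169 shared peaks, and the next decile held 13. The control list was less sharply divided. Its strongest lost peak ranked 6, and 38 of its top 50 and 65 of its top 100 peaks were shared.

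**Figure D1:**
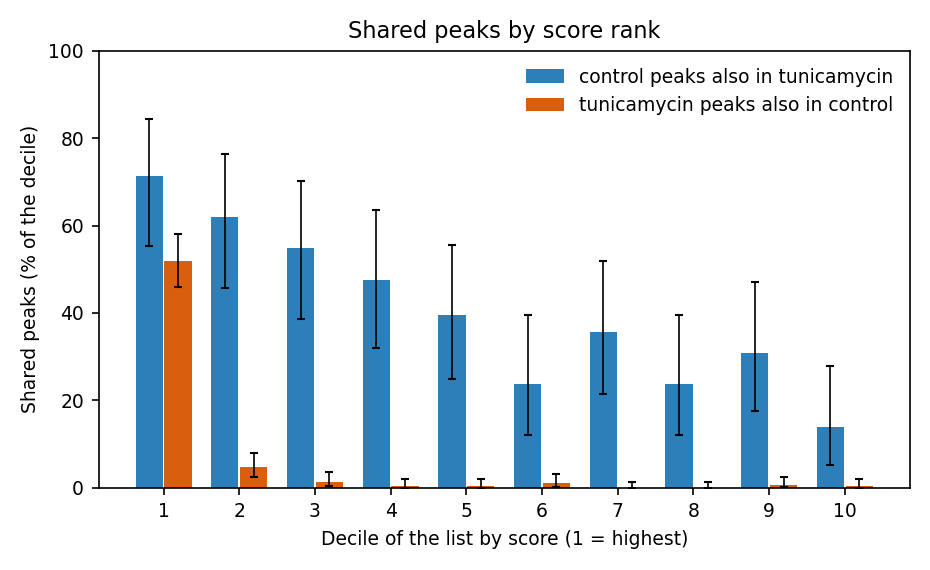
Share of peaks found in the other list (%, vertical axis) by decile of the list in order of score (horizontal axis, 1 is the highest). Blue bars are control peaks, orange bars are tunicamycin peaks and error bars are 95% exact Clopper-Pearson intervals. In tunicamycin the share is 52.0% in the first decile and 4.68% in the second, while in control it runs from 71.4% in the first to 14.0% in the last.

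Genes could be named where the start of the gene in mm9 is well known and lies within 1 kb of a summit. These names rest on background knowledge of mm9 and not on an annotation file. The genes were listed with earlier results of these data known, so counts among them give no rate. Of 13 genes looked for, 9 had such a peak. In 6 of them (Rad9a, Bax, Ube2b, Sumf1, Ctsa and Atf4) it was in both lists, and in 3 (Flcn, Mcoln1 and Hexa) it was in tunicamycin only. Among all 3028 merged regions, 169 were in both lists and 2607 in tunicamycin only. No summit lay within 1 kb of the position used for Fnip1, Sqstm1, Ddit3 or Xbp1, which leaves peaks elsewhere at these genes unaddressed.

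Rad9a, which encodes a subunit of the checkpoint clamp loaded at damaged DNA, had the highest score in both lists. Its peak was on chromosome 19 at 4201552 to 4201923 in control and at 4201414 to 4202047 in tunicamycin. The fold enrichment at the summit, the authors' value against the local background of each list, was 12.2 in control and 22.2 in tunicamycin. The summit held 92 tags in control (95% exact Poisson interval 74.2 to 113) and 298 in tunicamycin (265 to 334). The summits lay 10 bp apart.

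Bax, a pro-apoptotic member of the BCL-2 family, had its peak on chromosome 7 at 52722073 to 52722385 in control and 52721905 to 52722522 in tunicamycin. Its fold was 13.4 in control and 27.2 in tunicamycin, the highest of the tunicamycin list. The tag numbers were 59 (44.9 to 76.1) and 231 (202 to 263), and the summits were 1 bp apart. Ube2b encodes a ubiquitin-conjugating enzyme of DNA damage tolerance. Its peak, on chromosome 11 at 51814176 to 51814601 in control, had a fold of 12.5 in control and 26.1 in tunicamycin, with 63 (48.4 to 80.6) and 241 (212 to 273) tags. Rad9a, Ube2b and Bax took ranks 1, 2 and 3 of the tunicamycin list and ranks 1, 10 and 9 of the control list.

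Sumf1 and Ctsa, both of which serve lysosomal enzymes, had strong shared peaks. Sumf1 encodes the enzyme of the endoplasmic reticulum that activates sulfatases. Its peak on chromosome 6 (108135447 to 108135742 in control) had a fold of 13.0 in control and 23.0 in tunicamycin. Ctsa encodes cathepsin A, the protective protein of a lysosomal enzyme complex. The peak by Ctsa and Neurl2 on chromosome 2 (164659060 to 164659437 in control) had folds of 14.6 in control and 23.9 in tunicamycin. Tag numbers were 72 in control and 225 in tunicamycin at Sumf1, and 61 and 180 at Ctsa.

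At Atf4 the peak was on chromosome 15 at 80085673 to 80085966 in control and 80085525 to 80086066 in tunicamycin. Its fold was 9.45 in control, where it ranked 39, and 20.7 in tunicamycin, where it ranked 18. The summit held 47 tags in control (34.5 to 62.5) and 190 in tunicamycin (164 to 219). The Atf4 summits lay 103 bp apart, against a median of 15 bp over all shared pairs. In each of these 6 genes both the fold and the recovered tag number were higher in the tunicamycin list. These tag numbers are not scaled for the greater depth and longer fragments of the tunicamycin library, which together came to a factor of 1.98. After division by that factor the tunicamycin interval lay above the control interval at Rad9a, Bax, Ube2b, Sumf1 and Atf4. At Ctsa it ran from 77.9 to 105 and overlapped the control interval of 46.7 to 78.4. Over all 170 shared pairs, the scaled tunicamycin interval lay above the control interval in 127 (74.7%). The fold was higher in tunicamycin in 167 of the 170 (98.2%), so the 6 genes are not set apart from shared sites in general.

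Other sites among the 10 of best mean rank are given by position, with control coordinates. Chromosome 6 at 54816795 to 54817095 had folds of 11.9 in control and 19.7 in tunicamycin. Chromosome 8 at 97125581 to 97125891 had 15.3, the highest fold of the control list, and 25.2. Chromosome 17 at 46783190 to 46783648 had 14.0 and 24.6. The site of chromosome 10 at 41238831 to 41239085 had 11.8 and 23.9. The chromosome 17 site is the one where a single tunicamycin peak of 897 bp covered 2 control peaks. The second and weaker of these, at 46782946 to 46783132, had a fold of 4.64, and its summit lay 463 bp from the tunicamycin summit.

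Over all 170 pairs of shared peaks, the fold was higher in tunicamycin in 167, or 98.2%. The ratio of the tunicamycin fold to the control fold had a median of 2.06 (interquartile range 1.76 to 2.35). It was at least 1.5 in 148 pairs and at least 3 in 8. Each fold stands against the background of its own list, so the ratio describes deposited values and is no measure of occupancy. Tag numbers per unit of depth had a median ratio of 2.71 (2.33 to 2.99), and of 1.91 after division by the ratio of fragment lengths, which was 1.42. With both scalings the tunicamycin tag interval lay above the control interval in 127 pairs (74.7%), overlapped it in 42 and lay below it in 1. The intervals hold counting error only, so these counts are descriptions. They test no difference between the libraries and measure no occupancy. Paired summits were separated by 15 bp at the median and by at most 50 bp in 152 pairs. The tunicamycin peak was the wider in 168 pairs, with a median width ratio of 2.13.

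**Figure D2:**
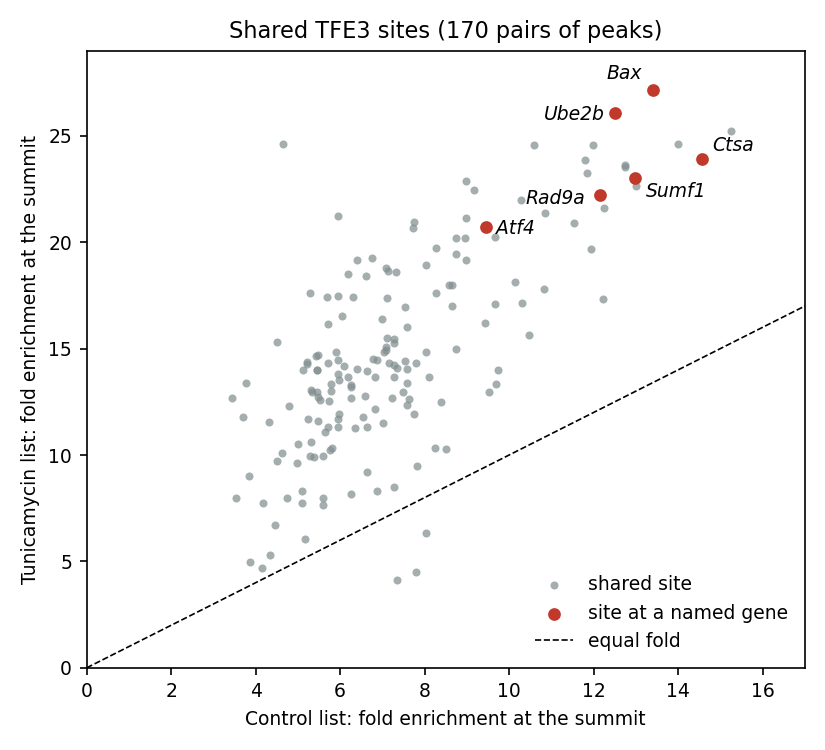
Fold enrichment at the summit in the control list (horizontal axis) and in the tunicamycin list (vertical axis) for the 170 pairs of shared peaks, each fold against the background of its own list. Red points are the 6 named genes, and the dashed line marks equal folds. All but 3 points lie above the line, and Bax is the highest at 27.2.

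The 3 shared pairs with a higher fold in control were on chromosomes 3, 8 and 18. On chromosome 3 at 58006652 to 58007055 the fold was 7.35 in control and 4.14 in tunicamycin, with 55 (41.4 to 71.6) and 60 (45.8 to 77.2) tags. On chromosome 8 at 85394892 to 85395279 it was 7.81 and 4.48, with 32 tags in each list, and the summits were 181 bp apart. On chromosome 18 at 78743929 to 78744107 it was 8.04 and 6.32. With tags scaled for depth and fragment length, the tunicamycin interval at the chromosome 3 site was 23.1 to 38.9, below that of control. At the sites on chromosomes 8 and 18 the scaled interval overlapped that of control.

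Some shared sites were weak in the control list and of high rank in tunicamycin. The lists differ in length, so their ranks are descriptions and show no change by themselves. Chromosome 8 at 121628980 to 121629165 was near the foot of the control list, at rank 419 with a fold of 3.45 and 25 tags (16.2 to 36.9). In tunicamycin the same site ranked 101, with a fold of 12.7 and 134 tags (112 to 159). Chromosome 5 at 31456436 to 31456663 ranked 411 in control and 223 in tunicamycin, with folds of 3.71 and 11.8. Chromosome 7 at 39070227 to 39070375 ranked 389 and 238, with folds of 4.31 and 11.6. These sites lie close to the limit of what was called in control.

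Gained peaks were mostly of moderate strength. Their median fold was 6.19 (interquartile range 5.27 to 7.84), against 14.1 (11.7 to 18.0) for shared peaks of the same list. A fold of at least 10 was reached by 255 of the 2607 gained peaks (9.78%) and by 143 of the 169 shared peaks (84.6%). A gained summit rested on a median of 51 tags (42 to 66) and a shared one on 136 (107 to 172). The gained peaks were narrower, at a median of 280 bp against 457 bp.

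**Figure D3:**
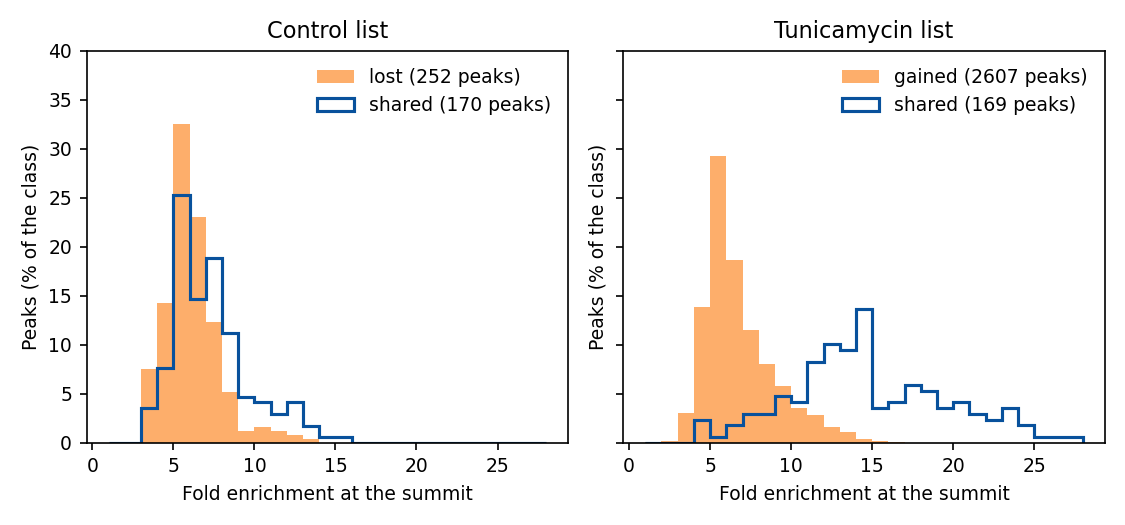
Distribution of the fold enrichment at the summit (horizontal axis) as the percentage of peaks of each class (vertical axis), for the control list (left) and the tunicamycin list (right). Filled bars are lost or gained peaks and the blue outline is shared peaks. In control the classes overlap, with medians of 5.94 for lost and 6.87 for shared peaks. A fold of at least 10 was reached there by 3.97% of lost and 14.1% of shared peaks. In tunicamycin the shared peaks extend to 27.2 and the gained peaks end at 16.6.

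Each peak was judged against local IgG signal where this was above the genome-wide level, and against the genome-wide level elsewhere. Of the 2598 gained peaks with a recovered background, 1285 stood at the genome-wide level (49.5%, 47.5 to 51.4). For shared peaks of the same list it was 52 of 169 (30.8%, 23.9 to 38.3). In the control list it was 55 of 252 lost peaks (21.8%, 16.9 to 27.4) and 51 of 170 shared peaks (30.0%, 23.2 to 37.5).

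The 10 strongest gained peaks ranked from 70 to 104 in the tunicamycin list and had folds of 11.4 to 16.6. The first, at 39914590 to 39914976 of chromosome 19, had 145 tags (122 to 171) and a fold of 14.9. Another of that chromosome, at 39760622 to 39761123, had 149 tags (126 to 175) and a fold of 11.7. Chromosome 4 at 40216227 to 40216879 had a fold of 13.5 and was the widest of the 10, at 653 bp.

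The highest fold of any gained peak, 16.6, was on chromosome 5 at 147603664 to 147604119, with 124 tags (103 to 148). Chromosome 8 at 71302678 to 71303098 followed at 16.2, and chromosome 6 at 135808374 to 135808740 and chromosome 11 at 102091319 to 102091704 both had 15.9. Chromosome 19 at 48827559 to 48827899 had 15.6, chromosome 10 at 112707885 to 112708261 had 15.5, and chromosome 15 at 83652988 to 83653391 had 11.4. Of these 10 peaks 6 stood at the genome-wide background. All 10 held at least 116 tags. These numbers are not divided by the factor of 1.98 for depth and fragment length, so they cannot be set directly against control tag numbers.

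Named gained peaks ranked lower. Mcoln1 encodes the cation channel mucolipin of the lysosome membrane. Its peak on chromosome 8 at 3500273 to 3500609 had a fold of 11.7 and 87 tags (69.7 to 107) and ranked 290. Flcn encodes folliculin, which acts on the Rag GTPases that report amino acids to mTORC1. Its peak on chromosome 11 at 59623150 to 59623780 had a fold of 10.2 and 85 tags (67.9 to 105) and ranked 379.

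Hexa encodes the alpha subunit of beta-hexosaminidase, a lysosomal enzyme. Its peak on chromosome 9 at 59387291 to 59387626 had a fold of 5.89 and 48 tags (35.4 to 63.6) and ranked 1608. Atp6v1h, a subunit of the proton pump that acidifies lysosomes, was added to the genes looked for after the sites were seen. Its peak on chromosome 1 at 5073012 to 5073319 had a fold of 5.93 and 43 tags (31.1 to 57.9), at rank 1678. No control peak overlapped any of these 4, so their fold and tag number in control are not given by the list.

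Among the 2598 gained peaks with a recovered tag number, the one with the most tags was of another kind. It was picked out after its value was seen. It lay on chromosome 11 at 3069497 to 3069730 and held 279 tags (247 to 314) over a local background of 76.0, so its fold was 1.70, the lowest of the list.

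Lost peaks were weaker in score than shared control peaks as a class, but included strong sites. Their median fold was 5.94 (5.18 to 6.87) against 6.87 (5.61 to 8.48), and their median tag number was 28 (25 to 33) against 34.5 (28 to 44.8). Of the lost peaks 10 had a fold of at least 10, as did 24 of the 170 shared control peaks. The strongest, at 91477693 to 91478319 of chromosome 7, had 72 tags at its summit (56.3 to 90.7), or 12.0-fold. The lost peak of highest fold, 13.6, came from 25716529 to 25717134 of chromosome 13, and held 61 tags (46.7 to 78.4).

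Chromosome 3 at 62941469 to 62942215 came next in score, with a fold of 11.1, 67 tags and a width of 747 bp. Chromosome 16 at 26211517 to 26211890 had a fold of 12.7, chromosome 2 at 117424034 to 117424350 had 12.1, and chromosome 11 at 110742400 to 110743055 had 11.6. Chromosome 18 at 69864245 to 69864742 had 10.7 and chromosome 14 at 17790320 to 17790744 had 10.3. The remaining 2 of the 10 strongest lay side by side on chromosome 15. Their folds were 10.2 at 11758741 to 11759226 and 8.06 at 11760448 to 11760887. No gene was named for any lost peak, because none of the listed gene starts lay within 1 kb of one.

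The strong lost peaks were wide, a pattern looked at after the values were seen. Over the whole classes the median widths were closer, at 221.5 bp for lost and 207.5 bp for shared control peaks. Of the 121 control peaks with a score of at least 100, 44 were lost, with a median width of 346 bp (interquartile range 287 to 486), and 77 were shared, with a median of 269 bp (214 to 317). A width of 300 bp or more was seen in 31 of the 44 and in 26 of the 77. Median folds were 8.31 for lost and 8.74 for shared, and median tag numbers were 40 and 45. Of the 10 strongest lost peaks 1 stood at the genome-wide background. Lost peaks also neighboured each other, with 12 pairs of adjacent lost peaks within 10 kb among 252, against 3 pairs among the 170 shared control peaks.

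**Figure D4:**
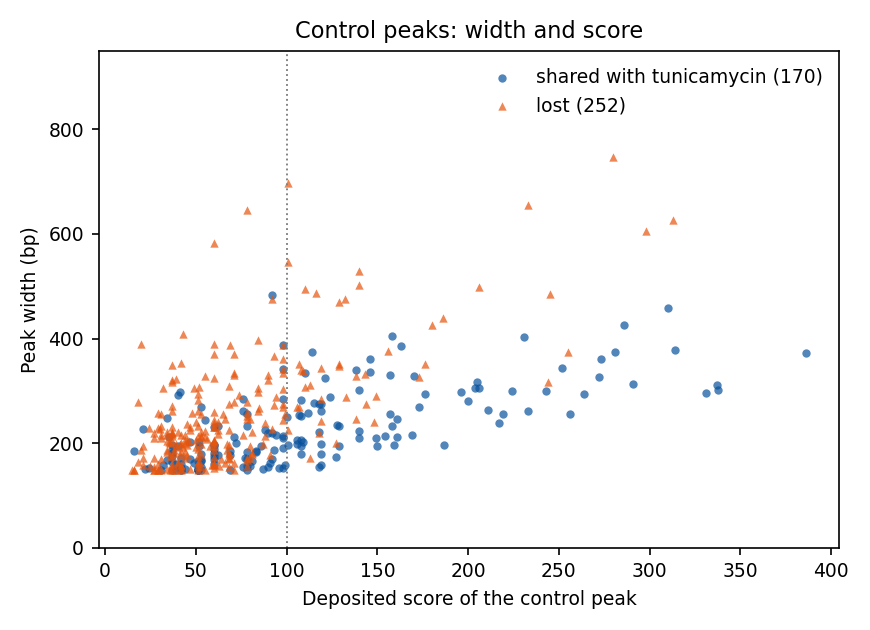
Width in bp (vertical axis) against deposited score (horizontal axis) for all 422 control peaks, with lost peaks as orange triangles and shared peaks as blue circles. Right of the dotted line, at a score of 100, the lost peaks have a median width of 346 bp and the shared peaks 269 bp, and the widest peak, of 747 bp, is lost.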

How the data were processed

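The authors deposited 1 TFE3 peak list per library, and the peak names pair each with a negative control. The submitters' processing notes name the tools Bowtie and MACS2 and the build mm9, without saying which versions were run. The deposited columns are a score, a fold enrichment over local background (a linear ratio), the −log10 p-value, the −log10 q-value and the summit position. Multiplying the −log10 q by 10 and dropping decimals gave the score for 100% of peaks. The lowest −log10 q was 1.57 in control and 1.45 in tunicamycin.

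Lists were compared with Python 3.11.15, numpy 2.4.6, pandas 2.3.3 and scipy 1.17.1. Tag numbers came from inverting MACS2's formulas (pseudocount 1, p met within 0.004 on the −log10 scale), which the labels do not record. A single tag number was found for 422 control peaks (100%) and 2767 tunicamycin peaks (99.7%). On simulated lists built with the same formulas the step resolved 100% and 99.6%, with the right number in each. Such lists check the inversion only and cannot show that the formulas apply to the deposited lists. The members, gene list and alternatives were chosen with earlier results of these data known.

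Named sites were the 10 strongest gained, lost and shared sites by score (shared ones by mean rank over the lists), and listed genes within 1 kb. The 3 largest rank differences each way were also sought, among shared sites in the upper 25% of either list. Toward control the last of the 3 was Rad9a, at rank 1 in both lists, so fewer than 3 of these sites ranked higher in control. The chromosome 8 pair at 85394892 also ranked higher in control, but lay outside the upper 25% of both lists. Ranks were compared as a percentage of each list, which the unequal list lengths shift, so rank differences are descriptions. Alternatives changed the score threshold, the overlap rule and the list length. The list from starved cells was not used here, and 1 of the 10 strongest shared sites is not reported here. Coordinates are 1-based.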

Additional observations from a re-analysis of the deposited data

How the results depend on the processing

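Of 38 repeats under another setting, 24 stayed and 14 moved, where a share stayed within its interval and a count, fold ratio or summit distance within 1.5 times. With a score of at least 50 in both lists, 46.5% of control peaks were shared and 161 were lost. With at least 100 in both, 62.0% of control and 5.20% of tunicamycin peaks were shared, with 1366 gained and 46 lost. With at least 100 for the peaks counted and the whole other list, 63.6% and 11.3% were shared, with 1278 gained and 44 lost. A 50% reciprocal overlap gave 16.8% and 2.56%. With as many tunicamycin peaks as control peaks, 36.7% of tunicamycin peaks were shared and 267 were gained. By construction, score and length limits leave fewer peaks to count. Counting a gap of up to 500 bp as shared changed no count. The fold ratio of shared peaks ran from 1.91 to 2.10 and the median summit distance from 12 to 15 bp over all settings run. No paired analysis was possible because each group has 1 library. The fewest tags under a called summit were 19 in control and 26 in tunicamycin, in libraries of unequal depth. The part of depth in these limits was not tested.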

Other observations

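The share of control peaks that were lost was looked at by chromosome, without a test. In 19 of 20 chromosomes its interval held the overall share, and chromosome 11 was the exception. Among 20 intervals of 95%, 1 exception can arise from counting error, so it is not read as a trait of that chromosome. On chromosome 11, 5 of 22 control peaks were lost (22.7%, 95% exact interval 7.82 to 45.4), and the 17 shared ones include that of Ube2b. On chromosome 15, 28 of 40 were lost (70.0%, 53.5 to 83.4), and on chromosome 3 it was 26 of 36 (72.2%, 54.8 to 85.8). Over the whole list the share was 59.7%, which lies within the intervals of chromosomes 15 and 3. Gained peaks were placed at 6.52% on chromosome 11 (5.60 to 7.54), 6.37% on chromosome 15 (5.46 to 7.37) and 6.75% on chromosome 3 (5.82 to 7.78).

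Several lost peaks formed close groups. On chromosome 2, 3 lost peaks lay between 117776780 and 117785494, with folds of 6.84, 5.74 and 7.60. On chromosome 13, lost peaks of 698 and 388 bp lay at 32359077 to 32359774 and 32361756 to 32362143, with folds of 6.59 and 7.81. On chromosome 2, lost peaks of 547 and 476 bp lay at 126128830 to 126129376 and 126135631 to 126136106, with folds of 6.59 and 6.70.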
